A study of Mus musculus with 3 samples.

Results

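Granzyme spots are positions on the slides where messages of cytotoxic lymphocyte granules were concentrated in the uterus of pregnant mice. A spot is a barcoded area of a Visium slide that captures RNA from the tissue above it, so it can hold several cells of different types or part of a cell. Spots with at least 1000 unique molecular identifiers (UMIs, counts of distinct captured RNA molecules) were kept. A kept spot was called a granzyme spot when Prf1, Gzma, Gzmb, Gzmc, Gzmd, Gzme, Gzmf and Gzmg together reached 5000 counts per 1000000 UMIs (CPM) and 5 smooth muscle genes (Acta2, Actg2, Tagln, Myh11 and Cnn1) together stayed under 4000 CPM. In all, 608 of 3939 kept spots met this rule. The values of those 13 genes chose the spots, so they are given as a description with no test.

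Uterine sections came from females housed to 8 weeks of age, mated with stud males and dissected on pregnancy day 7.5. No strain, genotype or treatment other than mating is named, and all sections form 1 group. There are 3 libraries, of which the first is labelled as holding biological replicates 1 and 2 together and the others as replicates 3 and 4. The labels do not say how many animals the first library holds, so it was counted as 1 and n = 3 throughout. The kept spots of the libraries carried 16894459, 27278983 and 29953072 UMIs, and the first was the shallowest, with a median of 8216 UMIs per kept spot against 26547 and 28286. Here and below, 3 values given together are in the order replicates 1 and 2, replicate 3, replicate 4.

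Uterine natural killer (NK) cells are the main lymphocytes of the decidua, the lining that the uterus forms around an implanted embryo. They depend on the cytokine interleukin 15, fill with granules of perforin and granzymes, and lie mostly in the mesometrial part of the decidua, where the arteries that feed the placenta are remodelled. Perforin opens membranes and granzymes are serine proteases that enter through those openings, and in mice the granzyme genes C to G lie side by side and are characteristic of the pregnant uterus.

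The share of granzyme spots differed widely between sections. They were 78 of 1773 kept spots in replicates 1 and 2 (4.40%, exact 95% binomial interval 3.49 to 5.46), 319 of 1080 in replicate 3 (29.5%, 26.8 to 32.4) and 211 of 1086 in replicate 4 (19.4%, 17.1 to 21.9). The mean share was 17.8% ± 12.6 (SD, n = 3), and the 3 intervals did not overlap. These intervals cover counting error only. The shallowest library had the lowest share. When spots were thinned to 3000 UMIs, which left out 168, 2 and 3 shallower ones, the shares were 4.67%, 30.1% and 19.3%. Granzyme spots held 78.7%, 90.5% and 83.9% of all UMIs of the 8 granzyme and perforin genes in their library.

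**Figure D1:**
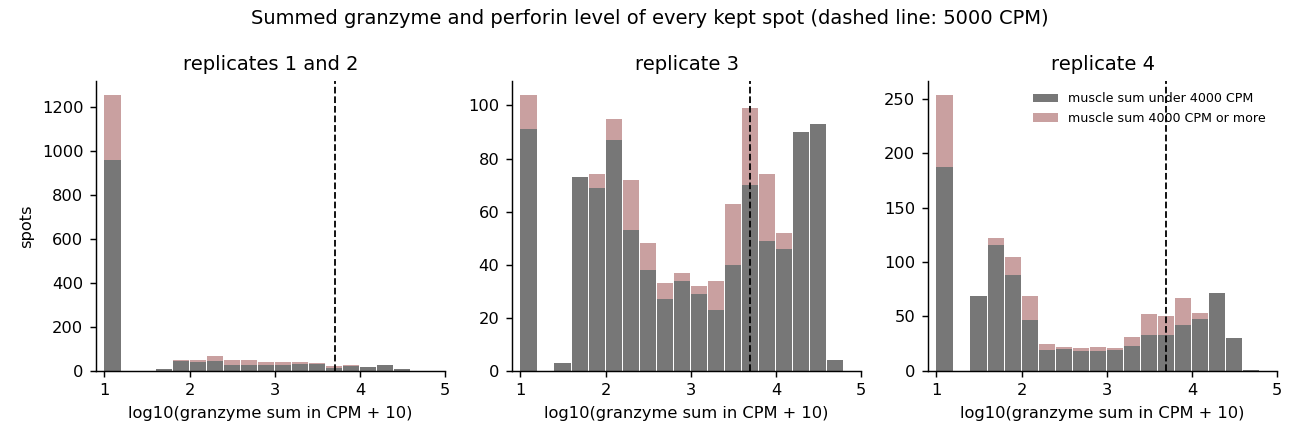
Number of kept spots (vertical axis) by the summed level of Prf1 and the 7 granzyme genes (horizontal axis, log10 of CPM + 10), in 1 panel per library. Grey bars are spots with a muscle sum under 4000 CPM, pink bars are the others stacked on them, and the dashed line is at 5000 CPM. Grey spots right of the line are the 78, 319 and 211 granzyme spots.

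The summed level was spread over a wide range and the limit of 5000 CPM did not fall in a gap. The median granzyme sum of the granzyme spots was 12018, 18683 and 15377 CPM, and the highest was 38741, 46935 and 46252 CPM. The nearest spots below the limit had 4936, 4959 and 4797 CPM and the nearest above had 5116, 5019 and 5002 CPM. In the last 2 libraries the muscle limit also cut through a continuous range, with 3933 and 3846 CPM just inside and 4416 and 4033 CPM just outside, while in replicates 1 and 2 the nearest sums were 1038 and 8125 CPM. Among the genes of the rule, Prf1, which encodes perforin, stood at 698, 798 and 717 CPM in the granzyme spots. Gzmd stood at 3293, 4730 and 4000 CPM and Gzma at 1103, 921 and 893 CPM. The genes Gzmb to Gzmg and Gzmn lie between 56117626 and 56262260 on chromosome 14 (GRCm38). The longest transcripts of Gzmd, Gzme, Gzmf and Gzmg are alike, with 86.4% to 94.8% identical bases in pairs and 12% of the 50-base words of Gzmd also present in Gzme, so the split of reads among these 4 is uncertain. Gzmc was 74.0% to 75.5% identical to them and shared at most 3.79% of its words, and Gzmb shared 0%.

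The label of these spots as NK cell spots was checked on genes that the rule did not use. NK receptors and their signalling chains were concentrated in them, and genes of T cells were either very scarce or higher. Cd3e, a T cell receptor signalling chain, had 1 UMI in the 608 granzyme spots, Cd8a had 3 and Cd4 had 4, which over all 3 libraries is 0.0616 CPM for Cd3e beside 0.138 CPM in the other kept spots. The chains Cd3d and Trac were scarce too but higher in granzyme spots, with 19 UMIs or 1.17 CPM against 0.345 CPM for Cd3d and 70 UMIs or 4.31 CPM against 1.71 CPM for Trac. The 13 T cell genes fixed as a list summed to 161, 166 and 167 CPM in granzyme spots against 9.21, 15.8 and 12.5 CPM elsewhere, but most of that sum was Trbc1, a constant segment of the T cell receptor beta chain, with 117, 122 and 116 CPM. Cd5, which marks T cells, was at 0. Of the 13 genes 6 passed the filter on low counts used below, and all 6 were called higher in granzyme spots, with a median log2 fold change of 2.87 (Trbc1 4.11, Trbc2 3.38, Cd28 3.31, Trdc 2.43, Cd3g 1.35 and Trac 1.06). In the fits that left out a library, 4 to 5 T cell genes were called higher. The filter can pass a gene on its granzyme spot sums alone and leaves out genes scarce in both classes. These counts of T cell genes are thus partly set by the filter and are a description. Whether T cells have a part in the granzyme spots was not tested. The spots are therefore called granzyme spots below.

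Granzyme spots were compared with all other kept spots of the same library by summing UMIs per gene, class and library and fitting edgeR's quasi-likelihood test with the library as a block. A gene was called where its Benjamini-Hochberg adjusted p was under 0.05 and its log2 fold change at least 1 in size. The filter on low counts passes a gene that is frequent enough in either class alone. Where a list is scarce in 1 class, its counts of calls and its median are therefore partly set by the filter. Of 13810 genes tested outside the rule, 853 were higher (6.18%) and 1501 lower (10.9%), and the median log2 fold change was 0.02. The fit's scaling set a gene with equal CPM in both classes at about -0.19 on the log2 scale, so fitted values near that level mean equal CPM. Because the spots were chosen by granzyme level, these comparisons describe what accompanies granzyme messages. A gene that is lower in a class of spots can reflect fewer cells of a type or less RNA per cell, and the 2 cannot be told apart. RNA that spread between neighbouring spots was not tested, and the positions of the spots on the slides were not analysed here.

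Receptors that NK cells use to sense other cells were higher almost throughout. Of the 28 receptor genes fixed as a list, 21 passed the filter on low counts, 19 of these were higher and 0 lower. Their median log2 fold change was 2.74. The count and the median are open to the effect of the filter, while sums over all 28 genes are not. The 28 genes summed to 358, 460 and 360 CPM in granzyme spots and to 83.2, 105 and 94.2 CPM in the other kept spots. With every spot thinned to 3000 UMIs, 9 of them could be tested and 8 were higher.

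Klrg1, an inhibitory receptor that binds cadherins, had 110, 120 and 92.3 CPM in granzyme spots and 2.30, 7.19 and 3.14 CPM in the others (log2 fold change 4.49, SE 0.21, edgeR adjusted p = 1.48e-06). Ncr1 (ENSMUSG00000062524, chromosome 7, 4337724 to 4345164, GRCm38), the activating receptor NKp46 that marks NK cells and related innate lymphocytes, had 28.8, 51.8 and 26.0 CPM against 1.98, 4.14 and 1.01 CPM (3.80, SE 0.19, edgeR adjusted p = 1.97e-06). Klrd1, which encodes CD94, had 35.2, 55.3 and 36.8 CPM against 3.32, 5.81 and 4.10 CPM (3.06, SE 0.12, edgeR adjusted p = 5.70e-07). For all of these the 3 libraries of granzyme spots were above all 3 libraries of other spots. Replicate 3 had the highest level of Ncr1 and of Klrd1 in both classes, and the granzyme spots of the other libraries lay close together.

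Among the remaining receptors, Klrb1c, which encodes the antigen NK1.1, rose by 3.51 on the log2 scale, from 1.39 ± 0.38 to 19.4 ± 2.66 CPM (SD, n = 3). Klre1, a lectin-like receptor, rose by 3.12. Klra7, a Ly49 receptor for MHC class I, rose by 3.65, from 2.20 ± 0.49 to 30.6 ± 6.56 CPM. All 6 tested Klra genes were called higher. The Klra genes are near copies of each other, so which of them the reads belong to is uncertain. Klrk1, the activating receptor NKG2D, rose by 1.99. Havcr2, the inhibitory receptor TIM-3, was not higher, at 24.8, 58.7 and 45.7 CPM against 51.7, 60.6 and 59.8 CPM, and the classes overlapped (-0.52, edgeR adjusted p = 0.0215, under the fold required).

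The 250 bases before the start of 4 of these genes are printed as examples that hold a match. The sequences were searched for the core motifs of factors that act in NK cells. They come from the RefSeq promoter table for GRCm38.p6, in lower case with each match in capitals, 5′ to 3′ on the strand of the gene. The intervals are chr7:4337474-4337723 on the plus strand for Ncr1, chr6:128788642-128788891 on the minus strand for Klrb1c, chr6:129623865-129624114 on the minus strand for Klrk1, and chr7:43436888-43437137 on the plus strand for the granule gene Nkg7.
Ncr1: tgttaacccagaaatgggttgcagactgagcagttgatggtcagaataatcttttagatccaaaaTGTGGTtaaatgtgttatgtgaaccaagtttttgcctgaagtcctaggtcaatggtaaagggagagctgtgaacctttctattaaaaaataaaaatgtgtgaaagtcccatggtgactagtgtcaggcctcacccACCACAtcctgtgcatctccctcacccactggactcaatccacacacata
Klrb1c: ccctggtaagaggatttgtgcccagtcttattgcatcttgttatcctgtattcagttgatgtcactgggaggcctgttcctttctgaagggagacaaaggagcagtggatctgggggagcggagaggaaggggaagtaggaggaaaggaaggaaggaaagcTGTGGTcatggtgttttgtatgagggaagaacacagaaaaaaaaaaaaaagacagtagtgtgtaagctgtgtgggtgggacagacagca
Klrk1: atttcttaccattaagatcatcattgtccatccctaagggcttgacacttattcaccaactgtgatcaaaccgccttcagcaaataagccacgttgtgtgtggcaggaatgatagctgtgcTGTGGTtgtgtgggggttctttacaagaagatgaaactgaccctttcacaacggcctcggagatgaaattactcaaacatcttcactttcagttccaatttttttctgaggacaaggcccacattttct
Nkg7: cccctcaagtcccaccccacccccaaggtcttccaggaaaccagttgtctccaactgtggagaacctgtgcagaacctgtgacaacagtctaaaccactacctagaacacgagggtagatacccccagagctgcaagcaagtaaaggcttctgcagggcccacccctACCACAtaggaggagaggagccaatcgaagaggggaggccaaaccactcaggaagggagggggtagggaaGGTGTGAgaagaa
The capitals mark the RUNX core TGTGGT, or ACCACA where it lies on the other strand, and in Nkg7 also the T-box core TCACACC, which lies on the other strand there and reads GGTGTGA. The RUNX cores of Ncr1 began 185 and 50 bases before the start of the gene, that of Klrb1c 89 bases and that of Klrk1 129 bases before it. In Nkg7 the RUNX core began 83 bases and the T-box core 13 bases before the start.

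Among the 48 genes of the NK receptor, signalling, transcription factor and granule lists that were called higher, 38 had a RefSeq promoter, with 53 promoters in all. The RUNX core, searched on both strands, was in 18 of the 53 (34.0%) and in 14% of all 32851 promoters of the same length. All 4 promoters printed above hold this core, while those of Eomes, Tbx21, Cd247 and Klra7 do not. The T-box core was in 4 of the 53 (7.55%) and in 3.33% of all promoters, and the ETS core CCGGAA in 6 (11.3%) and in 12%. Several of the 53 belong to near-copied Klra genes and to repeated starts of 1 gene, so they are not independent, and no test was made. A match is a stretch of letters and not a measured binding site.

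The signalling machinery behind these receptors was higher as well. Of 20 signalling genes, 17 could be tested, 16 were higher and 0 lower, with a median log2 fold change of 2.36. Il2rb (ENSMUSG00000068227, chromosome 15, 78479256 to 78495271, GRCm38), the receptor chain through which interleukin 15 acts, had 244, 264 and 248 CPM in granzyme spots and 11.6, 21.3 and 14.6 CPM elsewhere (3.82, SE 0.13, edgeR adjusted p = 3.11e-07). The level in granzyme spots was nearly the same in the 3 libraries although their shares of granzyme spots were far apart. Il2rg, the partner chain shared by several cytokine receptors, rose by less, from 10.5 ± 1.84 to 27.1 ± 5.15 CPM (1.18), and after thinning to 3000 UMIs it was at 0.96 and not called.

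Tyrobp, the adaptor DAP12 of activating receptors, had 597, 789 and 599 CPM in granzyme spots and 90.8, 116 and 84.7 CPM in the others (2.58, SE 0.08, edgeR adjusted p = 2.25e-07). Fcer1g, the adaptor chain that pairs with Ncr1 and Fc receptors, had 557, 597 and 650 CPM against 72.0, 88.1 and 70.6 CPM (2.79, SE 0.09, edgeR adjusted p = 2.86e-07). Both adaptors are also used by macrophages. Cd247, the zeta chain, rose by 3.72 from 1.19 ± 0.69 to 17.6 ± 0.17 CPM. Txk, a kinase of lymphocytes, rose by 3.84, Zap70, the kinase that binds phosphorylated zeta chains, by 1.67, and Coro1a, an actin regulator of leukocytes, by 2.56. Jak3, the kinase coupled to Il2rg, was at 12.7 ± 2.06 CPM against 8.71 ± 1.69 CPM and was not called (0.34, edgeR adjusted p = 0.0751).

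In single spots the receptor chain Il2rb was found more often in granzyme spots than in spots low in granzyme and muscle genes. After thinning each spot to 3000 UMIs, at least 1 Il2rb UMI was present in 52.6% of granzyme spots of replicates 1 and 2, 45.8% of replicate 3 and 53.1% of replicate 4. The background share, taken from spots with a granzyme sum under 1000 CPM and a muscle sum under 4000 CPM, was 1.35%, 2.30% and 2.75%. Without thinning the Il2rb shares were 89.7%, 96.6% and 94.3% of granzyme spots, whose median depths were 15752, 31398 and 21858 UMIs. In the low spots they were 4.67%, 11.9% and 13.7%, at 8953, 25222.5 and 32214 UMIs. Ncr1, Klrb1c, Klrd1, Klrk1, Eomes and Nkg7 were each found in fewer thinned granzyme spots than Il2rb. The shares were 24.4%, 31.0% and 34.6% for Nkg7, 2.56%, 17.9% and 6.6% for Ncr1, and 5.13%, 2.82% and 2.84% for Klrk1.

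**Figure D2:**
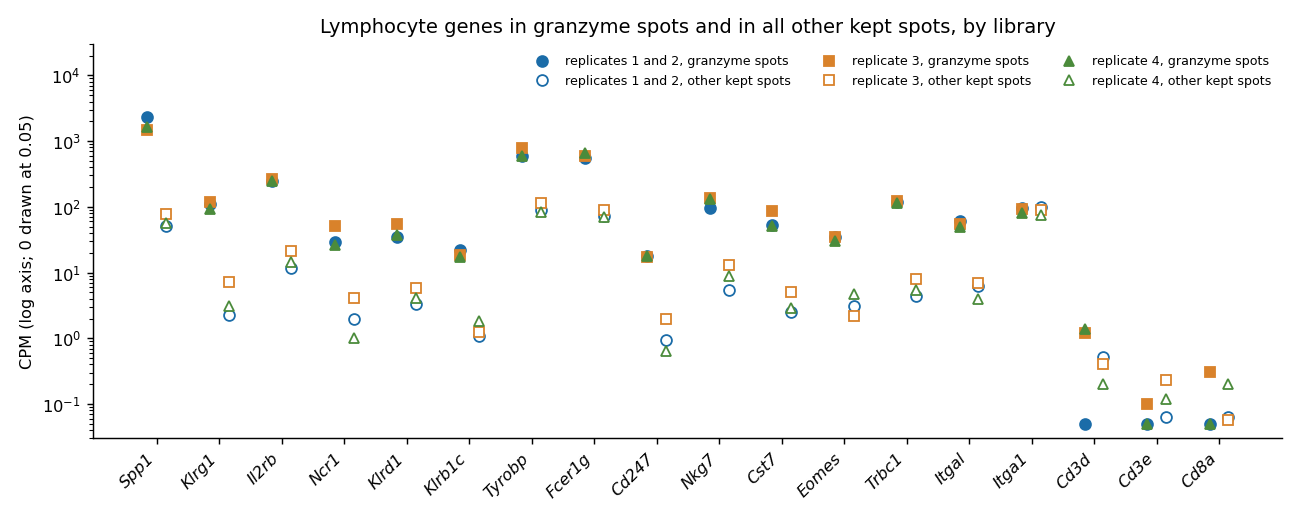
Level of 18 genes in CPM (vertical log axis, 0 drawn at 0.05) in granzyme spots (filled symbols) and all other kept spots (open symbols), with 1 symbol per library. From Spp1 to Itgal the filled symbols lie above all open ones, Itga1 overlaps, and Cd3d, Cd3e and Cd8a lie near or below 1 CPM.

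Transcription factors of the NK lineage were mixed. Of 13 factors 10 could be tested, 6 were higher and 1 lower, with a median of 1.46. Eomes, a T-box factor needed for NK cell maturation, had 34.4, 34.9 and 29.9 CPM in granzyme spots and 3.07, 2.19 and 4.70 CPM in the others (3.10, SE 0.25, edgeR adjusted p = 2.30e-05), with no overlap. Tbx21, its T-box relative T-bet, was scarce, with 38 UMIs in granzyme spots and 23 in the others, and was called higher (2.22, SE 0.48, edgeR adjusted p = 0.00584, and 1.57 without replicate 4). Runx3 rose by 2.16, Gata3 by 1.58 and Id2, which restrains alternative lymphocyte fates, by 1.35. Prdm1, the repressor Blimp-1, was lower, at 7.85 ± 3.33 CPM against 22.8 ± 3.72 CPM in the others (-1.54, SE 0.16, edgeR adjusted p = 0.000117). Nfil3, which early NK cell development needs, was at 84.2 ± 22.3 CPM against 98.8 ± 8.84 CPM, overlapped between classes and was not called.

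Granule and killing genes outside the rule split into those that rose with the granzymes and those that did not. Of 16 such genes 15 could be tested, 7 were higher and 2 lower, with a median of 0.99. Nkg7, a membrane protein of cytotoxic granules, had 96.0, 135 and 130 CPM against 5.43, 12.9 and 8.73 CPM (3.56, SE 0.13, edgeR adjusted p = 4.13e-07). Cst7, a cysteine protease inhibitor of killer cells, had 52.8, 86.4 and 51.4 CPM against 2.49, 5.0 and 2.90 CPM (4.00, SE 0.11, edgeR adjusted p = 2.25e-07). Neither gene overlapped between classes in any library.

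Ctsw, a protease of killer lymphocytes, rose by 2.99 and Unc13d, which primes granules for release, by 2.40. Gzmk rose by 3.65 from 0.32 ± 0.27 to 4.74 ± 2.55 CPM, far below the granzymes of the rule, and Gzmm had 6 UMIs in granzyme spots and 15 elsewhere. Srgn, the proteoglycan core of granules, was high everywhere, at 5882, 4762 and 4829 CPM against 2394, 2406 and 2029 CPM, and its difference of 0.99 (SE 0.07, edgeR adjusted p = 1.62e-05) was under the fold required. Stx11, a membrane fusion protein, was lower at 6.40, 23.1 and 14.8 CPM against 59.8, 60.7 and 60.8 CPM (-1.98, SE 0.20, edgeR adjusted p = 9.50e-05). Serpinb9b, a serpin of the granzyme inhibitor family, was also lower, at 232 ± 77.5 CPM against 444 ± 59.1 CPM (-1.15), and without replicates 1 and 2 its difference was -0.97 and not called. The 2 lower genes were common outside the granzyme spots.

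Adhesion and homing genes were mixed. Of 18 genes 15 could be tested, 6 were higher and 1 lower, with a median of 0.44. Itgal and Itgb2, the chains of the integrin LFA-1, rose by 3.10 and 2.75, and Itga4, an integrin chain of lymphocyte homing, by 1.95. The chemokine receptor Ccr2 rose by 1.94, and Cd69, an early activation marker, by 3.82 from 0.27 ± 0.07 to 4.32 ± 0.88 CPM. Itga1, the chain CD49a of tissue-resident NK cells, had 95.2, 91.8 and 79.7 CPM in granzyme spots and 99.7, 88.3 and 75.1 CPM in the others. Its levels overlapped and it was not called (-0.15, SE 0.08, edgeR adjusted p = 0.159). Itgae, the chain CD103, had 6 UMIs in granzyme spots and 17 elsewhere, and Zfp683, the residency factor Hobit, had 0 in both, which allows up to 0.185 CPM in granzyme spots (3 UMIs over the 3 libraries).

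Of the factors that NK cells are known to secrete, 11 of 17 could be tested, 4 were higher and 2 lower, with a median of 0.38. Spp1 (ENSMUSG00000029304, chromosome 5, 104435118 to 104441050, GRCm38), the secreted phosphoprotein osteopontin, had 2335, 1466 and 1633 CPM in granzyme spots and 50.6, 77.7 and 56.9 CPM in the others (4.68, SE 0.21, edgeR adjusted p = 1.43e-06). It was the largest rise among the called genes with a mean log2 CPM of at least 3. In single spots of replicates 1 and 2 it ranged from 570 to 6336 CPM with a median of 2111. The medians were 1247 CPM in replicate 3 and 1410 CPM in replicate 4, and 1 of the 608 granzyme spots had 0 Spp1 UMIs.

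Ptn, the heparin-binding growth factor pleiotrophin, had 3229, 1902 and 2488 CPM against 1035, 586 and 776 CPM (1.49, SE 0.07, edgeR adjusted p = 1.53e-06). It was thus abundant in both classes and higher in granzyme spots of every library. Xcl1, a chemokine for dendritic cells, rose by 1.55 from 3.12 ± 1.94 to 10.2 ± 3.65 CPM, but was at 0.89 and not called after thinning to 3000 UMIs, and just under the fold required with a granzyme limit of 10000 CPM. Ccl1, a chemokine of activated lymphocytes, had 172 UMIs in granzyme spots, of which 2 were in replicates 1 and 2, and 14 elsewhere (4.89, SE 0.34, edgeR adjusted p = 1.10e-05). Ifng, the cytokine interferon gamma, had 9 UMIs in granzyme spots and 6 elsewhere, a ratio of CPM of 5.35 (exact 95% interval 1.70 to 18.3, counting error only). Csf2, the growth factor GM-CSF, had 0 in both. Ogn, the matrix proteoglycan osteoglycin, was lower at 8.14 ± 1.72 CPM against 36.9 ± 13.6 CPM (-2.05), but at -0.27 and not called with only muscle-poor spots as the reference. Pgf, placental growth factor, was lower at 3.69 ± 3.21 CPM against 14.2 ± 3.29 CPM (-1.71).

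Among called genes with a mean log2 CPM of at least 3, the 12 largest rises also held genes outside these lists. Fcrl6, an Fc receptor-like protein of cytotoxic lymphocytes, had 28.0, 75.7 and 35.4 CPM against 0.831, 3.39 and 1.13 CPM (4.54). Tmsb15a, a thymosin, rose by 4.30 and Aldh3a1, an aldehyde dehydrogenase, by 4.21. Aldh3a1 was uneven across libraries, with 16.8, 82.9 and 119 CPM in granzyme spots, and was lowest in replicates 1 and 2. Necab2 rose by 4.30, Atp8b4 by 4.22, Zbtb32, a lymphocyte transcriptional repressor, by 4.20, Adgra1 by 3.97 and the T cell adaptor gene Sh2d2a by 3.96. A rise in all 3 libraries was a condition for this ranking. None of these genes overlapped between the classes.

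Genes that attract NK cells or let them grow were divided. Of 17 such genes 14 could be tested, 4 were higher and 3 lower, with a median of 0.21. Il15 had 61.6, 73.8 and 92.3 CPM in granzyme spots and 8.44, 26.1 and 57.5 CPM in the others (1.2, SE 0.29, edgeR adjusted p = 0.00998). The gap between the classes was widest in replicates 1 and 2 and narrowest in replicate 4. Without replicates 1 and 2 the difference was 0.90 and not called, and without replicate 4 it was 1.80. Without the library as a block it was 1.12 and not called (edgeR adjusted p = 0.181). Il15ra, the chain that presents interleukin 15, rose by 1.98 from 11.7 ± 2.23 to 54.7 ± 9.71 CPM. The monocyte chemokines Ccl7 and Ccl2 rose by 1.41 and 1.05, and without replicate 3 Ccl2 was at 0.90 and not called. Cxcl14, an abundant decidual chemokine, was below the others in every library, at 733 ± 161 CPM against 1124 ± 222 CPM, but under the fold required (-0.81). Of 16 tested NK ligands and MHC class I genes, 1 was called higher, the CD2-family ligand Cd48 (2.77), and 0 lower. Over all genes tested 6.18% were called higher and 10.9% lower, so the higher calls of this list were near the general share.

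Genes that respond to interferon gamma were higher as a list, beside the near absence of Ifng itself. Of 16 tested genes 9 were higher and 0 lower, with a median of 1.05. Irf8, an interferon-induced transcription factor that lymphocytes and myeloid cells also make, had 86.4, 82.5 and 90.5 CPM against 8.95, 11.6 and 8.44 CPM (2.98, SE 0.12, edgeR adjusted p = 6.30e-07). Iigp1, an interferon-induced GTPase, had 48.8, 33.9 and 33.3 CPM against 13.4, 10.4 and 9.33 CPM (1.61, SE 0.10, edgeR adjusted p = 7.53e-06). Psmb8, an immunoproteasome subunit, rose by 1.51 and the guanylate-binding protein gene Gbp3 by 1.17 (0.97 with a granzyme limit of 10000 CPM and 0.81 after thinning, both not called). None of these overlapped between the classes.

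Genes of cell division were modestly higher. Of 16 mitosis genes 1 was called, but all 16 had an adjusted p under 0.05 in the direction of granzyme spots (median 0.75). Over all 13810 genes tested, 853 (6.18%) were called higher and 2713 had an adjusted p under 0.05 in that direction. Mki67, which marks dividing cells, had 126, 104 and 103 CPM in granzyme spots and 48.1, 46.9 and 43.3 CPM in the others (1.06, SE 0.08, edgeR adjusted p = 1.45e-05). With a granzyme limit of 10000 CPM it was at 0.87 and not called. Top2a, a topoisomerase of dividing cells, stood at 119 ± 14.8 CPM against 56.8 ± 6.90 CPM (0.88, under the fold required). Of 16 DNA replication genes 10 had an adjusted p under 0.05 in the direction of granzyme spots (list median 0.38). Of the same 16 genes 0 were called higher and 2 lower, beside 10.9% lower among all genes tested. These 2 were Rrm1 and Rrm2, the subunits of ribonucleotide reductase, at -1.14 and -1.13, and Rrm2 was abundant outside granzyme spots, with 2675 ± 138 CPM against 1389 ± 97.9 CPM.

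Decidual and trophoblast genes and gland products held large falls. Of 25 decidual genes 13 were lower and 2 higher, with a median of -1.03. Prl8a2, a decidual prolactin of the antimesometrial zone, had 151, 804 and 717 CPM in granzyme spots and 29360, 11360 and 16030 CPM in the others (-5.30, SE 0.66, edgeR adjusted p = 0.000296). Its level in the other spots was uneven between libraries, and the classes were far apart in each. Without replicates 1 and 2 the difference was -4.33 and without replicate 3 it was -6.17. In single granzyme spots the median was 126, 148 and 342 CPM, while 1 spot of replicate 3 reached 25400 CPM and 1 of replicate 4 reached 22010 CPM.

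Some other decidual genes fell by as much, and others by less or were level. Prl3c1, another prolactin-family gene, fell by 6.39 on the log2 scale, Coch by 5.70, Mt3, a metallothionein, by 5.57, Erv3 by 5.48 and Gatm, an enzyme of creatine synthesis, by 3.61. Cyp11a1, the enzyme that starts steroid synthesis, was lower at 217, 222 and 251 CPM against 632, 638 and 565 CPM (-1.59). The stromal genes Hoxa10, a homeobox factor of the uterus, and Pgr, the progesterone receptor, were level, at 372 ± 51.6 against 374 ± 29.6 CPM and at 49.0 ± 1.02 against 47.7 ± 2.93 CPM.

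The 2 decidual genes that were higher were Ptgs2 and Wnt6. Ptgs2, the enzyme COX-2 that makes prostaglandins, had 48.0, 61.1 and 76.6 CPM in granzyme spots and 5.95, 7.82 and 11.8 CPM in the others (2.67, SE 0.11, edgeR adjusted p = 8.43e-07). Wnt6, a secreted Wnt ligand, had 192, 127 and 151 CPM against 80.7, 45.4 and 70.7 CPM (1.09, SE 0.10, edgeR adjusted p = 5.41e-05), and without replicate 3 its difference of 0.93 was not called. Greb1, an oestrogen-induced gene, rose by 1.10 (0.87 and not called without replicate 4), while Esr1, the oestrogen receptor, stood at 139 ± 22.7 CPM against 62.2 ± 4.76 CPM and was just under the fold required (0.97).

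All 9 tested trophoblast genes were lower, out of 13 listed. Prl3d1, placental lactogen of trophoblast giant cells, had 13 UMIs in the granzyme spots and 6782 in the others, a ratio of CPM of 0.00684 (exact 95% interval 0.00364 to 0.0117, counting error only). Prl7a1 had 14 UMIs against 5928. Prl3d2, a near copy of Prl3d1, had 1 UMI against 1046 (ratio 0.00341, 8.63e-05 to 0.019) and Hand1, a transcription factor of giant cells, 3 against 1691 (0.00633, 0.0013 to 0.0185).

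These 4 genes were among the 10 largest falls of called genes with a mean log2 CPM of at least 3. The other 6 of these falls were gland and epithelial products or genes outside the lists. The proteases of uterine glands Prss28 and Prss29 had 5 UMIs against 7845 and 25 against 21845. Prss28 had the largest fall of the called genes with a mean log2 CPM of at least 3 (-8.44, SE 0.20, edgeR adjusted p = 1.16e-07). Spink1, a protease inhibitor, had 29 UMIs against 17106. Klk7, a kallikrein protease, had 2 against 1798 (ratio 0.00397, 0.00048 to 0.0144), Kng1, the kininogen gene, 1 against 1046 (0.00341, 8.63e-05 to 0.019) and Sprr2d, a small proline-rich protein of epithelia, 2 against 899 (0.00794, 0.00096 to 0.0288).

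Macrophage and endothelial genes gave few calls, as did all genes tested, of which 6.18% were higher and 10.9% lower. Among 13 tested macrophage genes 0 were higher and 2 lower, Csf1r, the receptor of macrophage growth factor, with 15.2, 58.7 and 42.5 CPM against 108, 146 and 229 CPM (-2.15, and -2.75 without replicate 3), and Cd68, a lysosomal protein, at 24.1 ± 7.37 CPM against 55.4 ± 18.9 CPM (-1.34). Adgre1, the macrophage marker F4/80, was at 5.13 ± 1.2 CPM against 4.91 ± 1.07 CPM and C1qa, a complement chain of tissue macrophages, at 39.5 ± 4.73 CPM against 40.2 ± 2.68 CPM, and neither was called. The other kept spots include 697 muscle-rich spots with little granzyme signal, where C1qa stood at 174 ± 16.7 CPM. In the spots low in both sums it stood at 14.4 ± 2.03 CPM. With only muscle-poor spots as the reference C1qa therefore came out at 0.91 (edgeR adjusted p = 7.89e-05), and 4 of 13 macrophage genes were called higher instead of 0, with the same 2 called lower.

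Among 17 endothelial genes 0 were higher and 1 lower, beside 6.18% higher and 10.9% lower among all genes tested. Pecam1, the endothelial adhesion molecule CD31, was level at 102, 117 and 114 CPM against 102, 115 and 118 CPM. Plvap, a protein of fenestrated vessels, was lower at 39.1 ± 4.96 CPM against 87.5 ± 4.27 CPM (-1.38, and -0.95 and not called after thinning). Cdh5, the cadherin of endothelial junctions, stood at 106 ± 19.8 CPM against 172 ± 30.7 CPM (-0.87, under the fold required). Of 18 stromal matrix genes 7 were lower and 1 higher. Postn, the matrix protein periostin, was lower at 54.5 ± 15.7 CPM against 266 ± 75.9 CPM (-2.31, but -0.99 and not called against muscle-poor spots alone), Dcn, the proteoglycan decorin, fell by 1.61, and Thy1, which is a stromal and a T cell surface protein, rose by 2.17. All 5 globin genes were lower, and at least 4 were in each fit that left out a library. They summed to 763, 476 and 1185 CPM in granzyme spots and to 848, 939 and 1704 CPM in the spots low in both sums. In the muscle-rich spots with little granzyme signal they summed to 15320, 1448 and 4796 CPM. Of the pericyte genes 4 of 8 were lower, of the epithelial and gland genes 3 of 9 and of the neutrophil genes 2 of 4, with 0 higher in each list. Among them Kcnj8, a potassium channel of pericytes, stood at 6.63 ± 3.4 CPM against 16.6 ± 1.48 CPM (-1.23) and S100a9, a neutrophil calcium-binding protein, at 7.98 ± 6.90 CPM against 49.1 ± 19.9 CPM (-2.39).

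**Figure D3:**
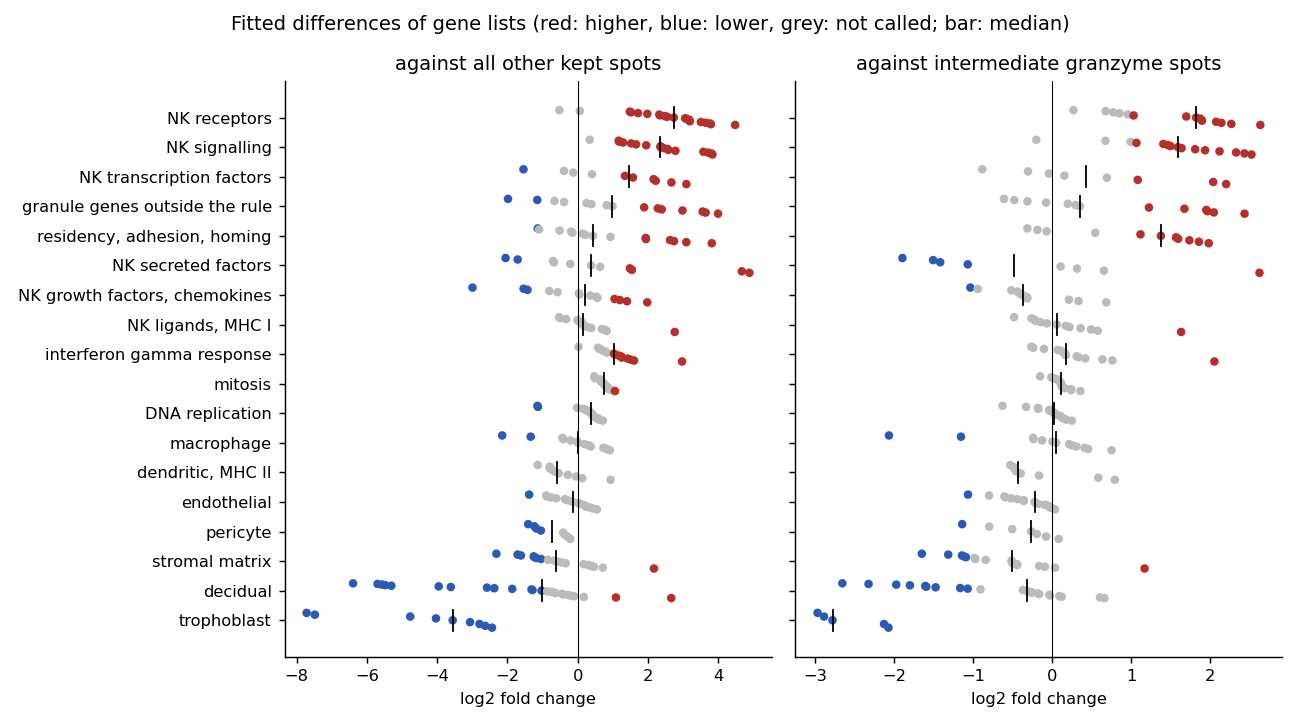
Fitted log2 fold change (horizontal axis) of each tested gene of 18 lists, for granzyme spots against all other kept spots on the left and against intermediate spots on the right, where the horizontal scale is narrower. Red points were called higher, blue lower, grey not called, and a bar marks the median of a list. NK receptors and NK signalling lie to the right of 0 in both panels, trophoblast to the left in both, and the medians of mitosis move from 0.75 to 0.11.

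All granzyme spots (median granzyme sum 12018, 18683 and 15377 CPM) were then compared with intermediate spots (2174, 3050 and 2714 CPM). These were 306 spots with a sum of 1000 to under 5000 CPM and a muscle sum under 4000 CPM, with 94, 122 and 90 per library. Of 11364 genes tested, 277 were higher (2.44%) and 369 lower (3.25%) in granzyme spots, and without the library as a block in the fit the counts were 144 and 39. NK genes still separated the classes. Of the receptors 10 of 15 were higher and of the signalling genes 12 of 15, with 0 lower in both lists.

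Spp1 had 2335, 1466 and 1633 CPM in granzyme spots and 404, 197 and 299 CPM in intermediate spots (2.63, SE 0.08, edgeR adjusted p = 3.01e-11). Il2rb had 244, 264 and 248 CPM against 52.8, 43.1 and 39.6 CPM (2.53, SE 0.09, edgeR adjusted p = 8.86e-11). Klrg1 rose by 2.64, Trbc1 by 2.44, Eomes by 2.21, Ncr1 by 1.90 (not called without the block, at 1.84) and Tyrobp by 1.81, each with no overlap. Il17rb, a receptor chain for interleukin 25, rose by 2.72 and F13a1, a clotting factor chain, by 2.73.

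Several genes that had been called higher against all other spots were not called here. Wnt6 stood at 192, 127 and 151 CPM in granzyme spots and 208, 100 and 189 CPM in intermediate spots (-0.03, SE 0.11, edgeR adjusted p = 0.907). Il15 stood at 75.9 ± 15.5 CPM against 92.8 ± 70.5 CPM, with 30.4, 78.9 and 169 CPM in the intermediate spots of the 3 libraries (-0.32, SE 0.19, edgeR adjusted p = 0.298). Of 16 mitosis genes 0 were called, with a median of 0.11, and Mki67 differed by 0.24 (SE 0.08, edgeR adjusted p = 0.0571). Ptn stood at 2540 ± 665 CPM against 1702 ± 771 CPM (0.66, under the fold required). Of 15 interferon gamma response genes 1 was called higher, Irf8 (2.06), and Iigp1 stood at 38.6 ± 8.79 CPM against 35.2 ± 9.54 CPM. Whether any gene's difference changed between the 2 comparisons was not tested, since they share the granzyme spots.

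Decidual and trophoblast genes were again lower. Of 23 decidual genes 9 were lower and 0 higher, with Gatm at 142, 195 and 135 CPM against 493, 722 and 437 CPM (-1.80), and Prl8a2 at 151, 804 and 717 CPM against 200, 2389 and 3354 CPM (-1.61; not called by DESeq2, at -1.41, or without the block, at -1.84). All 5 tested trophoblast genes were lower, among them Krt18, an epithelial keratin, at 10.4, 21 and 28.2 CPM against 51.4, 159 and 212 CPM (-2.89). Intermediate spots of replicates 1 and 2 thus held less of Prl8a2 and Krt18 than those of the other libraries. Cxcl14 fell by 1.04 and Dcn by 1.32. Csf1r was called lower (-2.07, but not by DESeq2, at -1.54, nor without the block, at -1.96), and its level was 15.2 CPM in both classes of replicates 1 and 2.

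**Figure D4:**
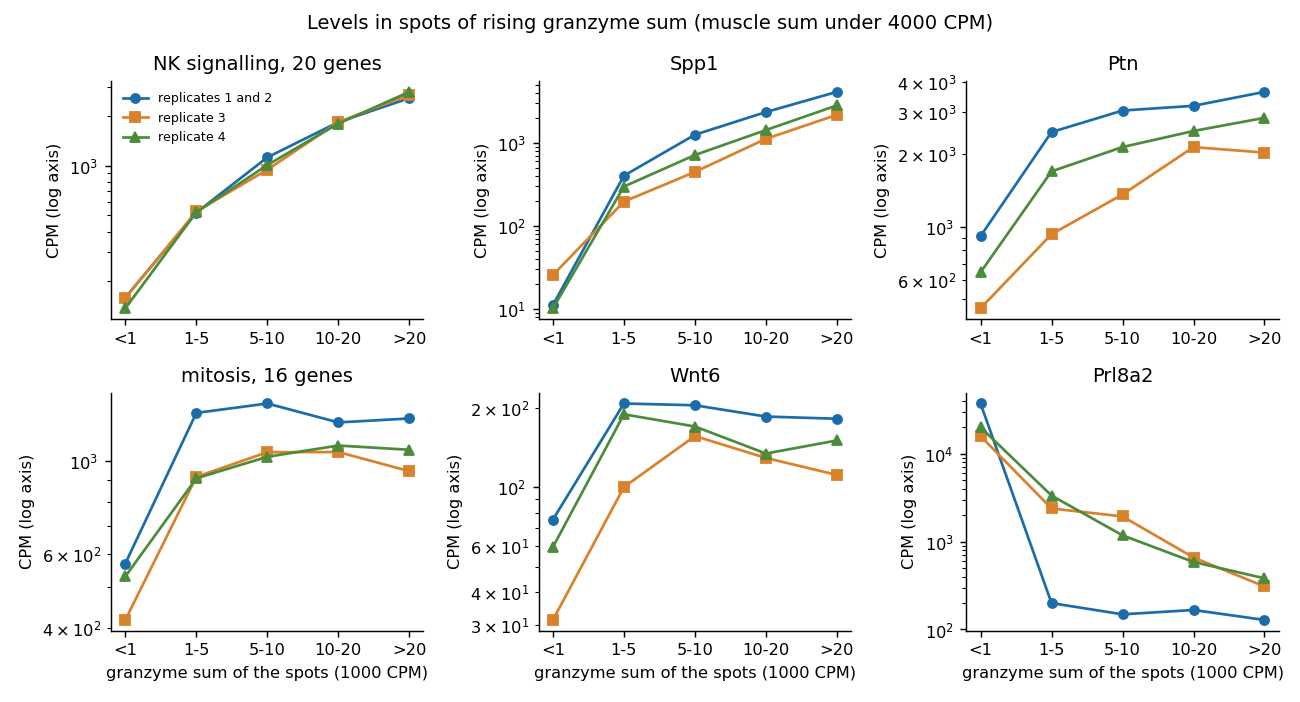
Level in CPM (vertical log axes) of 2 gene lists and 4 genes in 5 bins of spots by granzyme sum in 1000 CPM (horizontal axis), with a line per library and only spots with a muscle sum under 4000 CPM. NK signalling and Spp1 rise through all bins, mitosis and Wnt6 are level from the second bin on, and Prl8a2 falls from the first bin to the last.

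Levels along the granzyme sum are given in 5 bins as a description with no test, since the rule used that sum and the first 2 bins are the low and the intermediate spots. The 20 NK signalling genes summed to 152 ± 12.6 CPM under 1000 CPM of granzyme sum, 524 ± 4.22 CPM at 1000 to under 5000, 1026 ± 89.2 CPM at 5000 to under 10000, 1818 ± 20.9 CPM at 10000 to under 20000 and 2677 ± 117 CPM at 20000 or more (SD, n = 3). Spp1 rose over the same bins from 15.6 to 300, 809, 1640 and 3059 CPM, and Il2rb from 6.41 to 45.2, 122, 251 and 379 CPM. The 16 mitosis genes summed to 506, 1042, 1147, 1125 and 1090 CPM, so they were level from the second bin on. Wnt6 was level too, with 55.4, 166, 177, 150 and 148 CPM, and Prl8a2 declined from 24530 CPM in the first bin to 273 CPM in the last.

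Within the granzyme spots alone, after thinning to 3000 UMIs, Spearman's rho between the granzyme sum and Spp1 was 0.74, 0.63 and 0.72 over 78, 319 and 211 spots. For the NK signalling list it was 0.57, 0.60 and 0.67. The values of other NK lists were smaller, with -0.026, 0.38 and 0.31 for receptors, 0.078, 0.19 and 0.12 for transcription factors, and 0.0061, 0.22 and 0.078 for granule genes outside the rule. The receptors had only 0.808, 1.46 and 1.05 UMIs per thinned spot on average. For the mitosis list it was -0.19, -0.12 and 0.04, and for the list of NK growth factors and chemokines -0.32, -0.40 and -0.40. Spots of a library share its depth and section, so no p-values are given.

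Granzyme-high spots over the muscle limit were compared last, to show what the muscle limit removed. Only 6, 44 and 40 such spots exist, and those of replicates 1 and 2 hold 25862 UMIs, so single genes there rest on a few UMIs. Of 8751 genes tested, 443 were higher (5.06%) and 580 lower (6.63%) in granzyme spots. The fit took the spread between libraries entirely from all genes pooled, so its p-values are smaller than 3 libraries alone would give. The fits against all other spots and against intermediate spots drew on pooled genes in part. Their pooled degrees of freedom were 6.48 and 13.4, beside 2 from the libraries. For the spots over the muscle limit, the counts without replicate 3 were 187 and 348. Without replicate 4 they were 222 and 386, and without replicates 1 and 2 they were 596 and 999.

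Matrix, macrophage and antigen-presentation genes lay on the muscle side. Postn had 38.4, 69.8 and 55.3 CPM in granzyme spots and 889, 1252 and 1105 CPM over the muscle limit (-4.29, SE 0.22). Col1a1, a collagen chain, had 338, 442 and 478 CPM against 1740, 2784 and 2436 CPM (-2.42, SE 0.25). Dpt, a dermal and uterine matrix protein, fell by 4.84 and Dcn by 2.57 on the log2 scale. Of 18 stromal matrix genes 14 were lower and 0 higher. C1qa had 37.6, 44.9 and 36.0 CPM against 193, 234 and 233 CPM (-2.59, SE 0.16), and 5 of 9 macrophage genes were lower. All 5 tested genes of antigen presentation by MHC class II were lower, with H2-Ab1, a class II beta chain, at 24.4 ± 8.05 CPM against 136 ± 18.6 CPM (-2.25) and Cd74, the invariant chain, at 60.6 ± 37.5 CPM against 182 ± 62.9 CPM (-1.52). None of these overlapped between the classes.

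NK genes were not all lower over the muscle limit to the same degree. Spp1 had 503, 343 and 477 CPM there, below its 2335, 1466 and 1633 CPM in granzyme spots (1.99, SE 0.25). Klrg1 had 0, 38.6 and 21.5 CPM (1.75) and Eomes 0, 6.89 and 9.93 CPM (1.92). Without replicate 3 Eomes was at 1.62 and not called. Il2rb had 232, 117 and 122 CPM and was just under the fold required (0.97), and Tyrobp had 348, 426 and 414 CPM (0.69, also under it). The value of Il2rb in replicates 1 and 2 is 6 UMIs. The median granzyme sum of these spots was 5980, 6866 and 7776 CPM, below that of the granzyme spots, so the muscle and the granzyme level cannot be told apart in this comparison. Among decidual genes 8 of 23 were higher in granzyme spots and 2 lower, including Ptgs2 (1.48) and Wnt6 (1.09, and not called without replicate 3, at 1.36, or without replicate 4, at 1.2). Slc6a12, a betaine transporter, was among the largest rises (2.80), at 172, 317 and 256 CPM against 0, 45.5 and 33.1 CPM, and Il1r2, a decoy receptor for interleukin 1, rose by 2.49. The 16 mitosis genes gave 0 calls in either direction in this comparison.

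**Figure D5:**
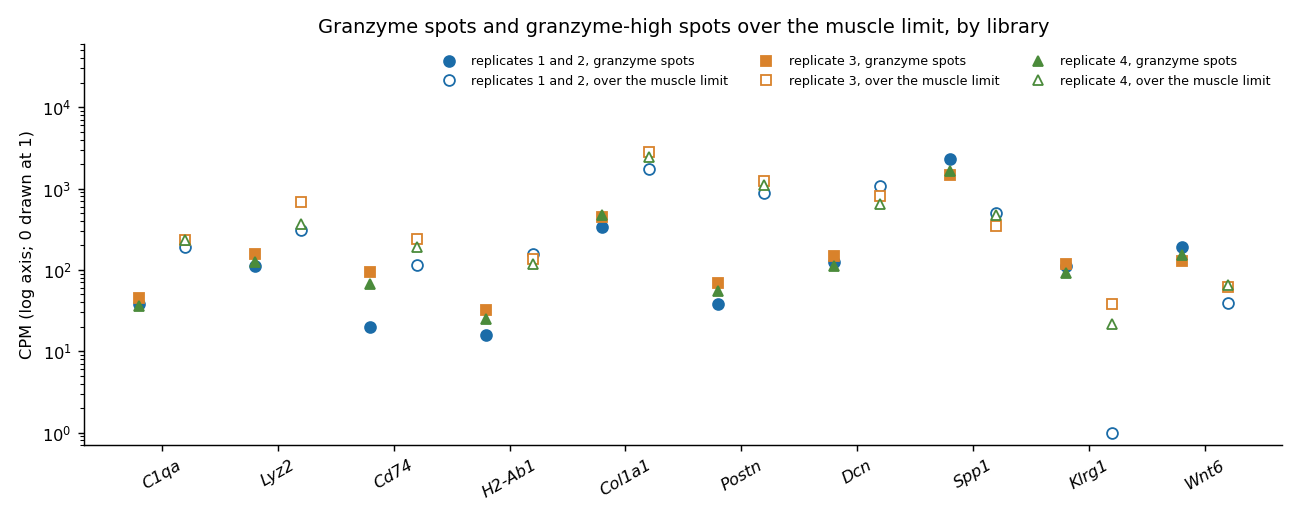
Level of 10 genes in CPM (vertical log axis, 0 drawn at 1) in granzyme spots (filled symbols) and in granzyme-high spots over the muscle limit (open symbols), with 1 symbol per library. C1qa, Lyz2, Cd74, H2-Ab1, Col1a1, Postn and Dcn lie higher over the limit, and Spp1, Klrg1 and Wnt6 lie higher in the granzyme spots.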

How the data were processed

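Frozen uterine sections were placed on Visium slides and libraries made from them, per the labels' protocols. The authors deposited 1 matrix of UMI counts per gene and spot for each of 3 libraries, not normalized; the matrix headers name Space Ranger 1.2.2, and Cell Ranger with the build mm10 stands in the submitters' processing notes. Aligner settings: not given in the sources used here. The members and gene lists were chosen with earlier results of these data known. Of 3978 deposited spots, 39 had under 1000 UMIs. Counts were summed per class and library (CPM is per 1000000 UMIs of the class) and fitted with edgeR 4.0.16 (R 4.3.3) in a quasi-likelihood test with trimmed-mean scaling, edgeR's filter on low counts and the library as a block. The block follows from the design, since both classes lie on the same slide area. The 13 rule genes, Gzmn and 12 further smooth muscle genes entered the fit and no test. Whether the libraries come from separate animals beyond the label of biological replicate is not stated.

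Named genes were those with the largest rises (up to 12) and falls (up to 10), up to 6 with the smallest p per list, and fixed markers. The largest rises and falls were taken among called genes with a mean log2 CPM of at least 3. They also had to have the same sign in every library, and unnamed gene models were passed over. Klrb1c, Klrk1, Havcr2, Il2rg, Cd247, Zap70, Jak3, Tbx21, Nfil3, Serpinb9b, Stx11, Il15, Wnt6, Pgf, C1qa, Hoxa10, Pgr and others of the lists were named after their values were seen. One gene that the rule names is not reported here. Of the largest rises and falls in the comparisons with intermediate spots and over the muscle limit, a few are given. Of 32285 gene identifiers, 32158 were found in GENCODE M21 (GRCm38), which gave positions and transcripts. Visium slides share a set of barcodes, so libraries share 676 to 825 of them. The test was tried on simulated counts drawn from the real means. Of genes changed 2-fold it recovered 88.9% for all other spots, 85.9% for intermediate spots and 67.2% over the muscle limit. Recovered meant an adjusted p under 0.05 in the right direction, without the fold minimum of the calls. The median size of their fitted log2 fold changes was 0.969, 0.985 and 1.08 in that order, near the minimum of 1. These shares are thus not the sensitivity of the call rule. Doublets were not called, since spots hold several cells.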

Additional observations from a re-analysis of the deposited data

How the results depend on the processing

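The mean share of granzyme spots was 17.8% by the rule. It was 12.7% with a granzyme limit of 10000 CPM and 21.3% with a limit of 3000 CPM. The other settings gave values between these, and leaving out a library gave 11.9% to 24.5%. Counts of called genes moved more. Against all other kept spots, thinning to 3000 UMIs gave 459 higher and 874 lower, dropping the fold minimum gave 2713 and 3111, and no replicate block gave 785 and 1345. Against spots over the muscle limit, no filter on low counts gave 716 and 879, no fold minimum gave 925 and 1005, and leaving out a library gave 187 to 596 and 348 to 999. Against intermediate spots, leaving out the replicate block gave 144 and 39, DESeq2 gave 207 lower, no filter gave 583 lower and no fold minimum gave 730 and 1147. The cause was not tested. Of 1248, 144 and 175 alternatives for the called genes named in the 3 comparisons, 1229, 136 and 162 kept the call, and 0 changed its sign.

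Some named genes that were not called changed sign. C1qa was at 0.41 with no muscle limit, 0.32 against spots with a granzyme sum under 1000 CPM and 0.91 against muscle-poor spots. Adgre1 was at 0.40, 0.42 and 0.71 in these, at 0.029 in spots of at least 5000 UMIs, and at -0.19 to 0.061 (0.014 without replicate 4) when a library was left out. Against intermediate spots, leaving out a library gave -0.51 to 0.18 for Il15, -0.24 to 0.16 for Wnt6 and -0.072 to 0.38 for Iigp1. Depth limits scarce genes, since after thinning 9 of the 28 NK receptors could be tested. All comparisons rest on 3 libraries.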
